A study of Mus musculus with 18 samples.

Results

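Embryos without Dnmt1 and embryos without Dnmt3a were compared with each other directly, as single-cell transcriptomes of whole mouse embryos at E8.5. The comparison rests on 7 of the 18 libraries of the series, namely Dnmt1 KO 1, 2 and 3 and Dnmt3a KO 1, 2, 13 and 14, which are all the libraries that the labels give to these genotypes. The question was what separates loss of the maintenance enzyme from loss of 1 de novo enzyme when neither is read through a wild-type control. Each library is 1 embryo, and the embryo is the replicate.

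DNA methylation is a mark on cytosine, mostly at CpG dinucleotides, that in mammals keeps many germline genes, 1 copy of imprinted genes and many repeats silent in somatic cells. DNMT3A and DNMT3B place methylation on unmethylated DNA, and DNMT1, brought to replication forks by UHRF1, copies it onto the new strand after each division. Without DNMT1 the mark is diluted as cells divide, whereas DNMT3B can act where DNMT3A is missing.

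The Dnmt1 KO group carried the genotype Dnmt1 null and the Dnmt3a KO group the genotype Dnmt3a null. A Wildtype group of 7 embryos (WT) was used to show background levels, in an alternative model and in a search for embryos that stood apart, and not in the main fit. All embryos were on the strain background 129S4/SvJae and were collected at E8.5, when the first organs start to form. The authors inferred a minor developmental delay in Dnmt1 mutants from cell type proportions, and matched most Dnmt3a mutants to later reference embryos. Developmental stage thus cannot be told apart from genotype here, and its part in the levels and class shares was not tested. The alleles are germline mutations passed on through matings of heterozygous mice, so the gene was missing in every tissue of a KO embryo, extraembryonic tissue included. The labels do not say which WT embryos were littermates of which line, so differences between the lines other than the mutated gene cannot be told apart from the genotype.

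After filtering, 44701 cells remained of 59250 barcodes, 7553 in Dnmt1 KO and 37148 in Dnmt3a KO. Each Dnmt1 KO embryo gave 1502 to 3158 cells and 85250129 to 137196441 UMIs (unique molecular identifiers, each counted once per captured transcript), and each Dnmt3a KO embryo 6300 to 14387 cells and 178020980 to 253859789 UMIs. Median UMIs per cell were lowest in Dnmt1 KO 3 (6800) and Dnmt3a KO 2 (4169) and lay between 24992 and 59616 in the other 5 libraries. Pairs of libraries shared 2 to 92 barcodes. Summed Y-linked transcripts lay between 92.3 and 112 CPM (UMIs of a gene scaled to a library total of 1000000) in all 7 KO embryos, which were therefore all male, whereas 1 of the 7 WT embryos was. The authors' reference held human beside mouse genes for Dnmt3a KO 1 and 13, and mouse genes alone for the other 5. Across genes, Pearson correlations of log-scaled levels were 0.978 to 0.989 within Dnmt1 KO, 0.986 to 0.995 within Dnmt3a KO and 0.933 to 0.958 between them.

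Counts were summed over all kept cells of an embryo and compared between the 3 Dnmt1 KO and 4 Dnmt3a KO embryos with the quasi-likelihood test of edgeR. A call needed a Benjamini-Hochberg adjusted p under 0.01 together with a change of 1 or more on the log2 scale, and fold changes are given as Dnmt1 KO minus Dnmt3a KO with their SE. Of 18168 genes tested, 1039 (5.72%) were called higher and 881 (4.85%) lower in Dnmt1 KO. Without Dnmt1 KO 1 these were 773 and 446 genes, and without Dnmt1 KO 3 they were 1352 and 1240. The median log2 fold change of all genes was 0.01. In sums over a whole embryo, fewer cells of a type and less RNA per cell cannot be told apart.

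Most of the called genes set Dnmt1 KO apart from WT as well. Among genes called higher, all 3 Dnmt1 KO embryos lay above all 7 WT embryos for 929 of 1039, and the Dnmt3a KO mean lay within the WT range for 779. Among genes called lower, all 3 Dnmt1 KO embryos were under the lowest WT value for 812 of 881, and the Dnmt3a KO mean lay within the WT range for 689. The Dnmt3a KO mean was above the WT range for 227 of the genes called higher and for 186 of those called lower. The matching shares against WT over all genes tested were not computed. Groups that do not overlap were common: between the KO groups they were 12.7% of all genes with Dnmt1 KO higher and 23.4% with it lower. WT was also of mixed sex, whereas all KO embryos were male.

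**Figure D1:**
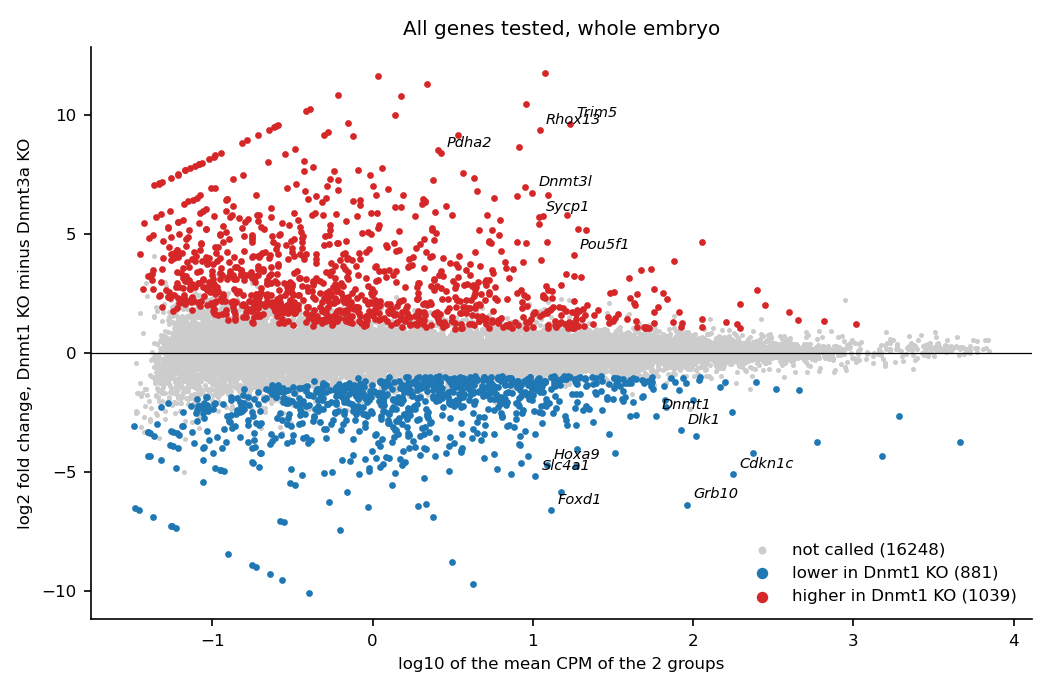
Each point is 1 of 18168 genes, with the log10 of the mean CPM of both groups on the x axis and the log2 fold change (Dnmt1 KO minus Dnmt3a KO, whole embryo) on the y axis. The 1039 genes called higher (red) and the 881 called lower (blue) lie on both sides of a body of genes centred near 0, and the straight rows at low levels are genes at or near 0 UMIs in 1 of the groups, whose fitted fold change depends on a small added count.

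Each targeted transcript was low in its own mutant. Dnmt1, on chromosome 9 at 20907209 to 20959888 of GRCm38, had 14.9, 15.6 and 15.1 CPM in Dnmt1 KO 1, 2 and 3 and 99.9, 99.4, 89.1 and 118 CPM in Dnmt3a KO 1, 2, 13 and 14, with 83.9 to 115 CPM in WT. The groups did not overlap and the difference was −2.65 ± 0.11 on the log2 scale (SE, adjusted p = 1.7e-06). Dnmt3a had 37.8, 26.4 and 30.9 CPM in Dnmt1 KO and 8.71, 9.67, 7.59 and 11.9 CPM in Dnmt3a KO, with 23.5 to 34.9 CPM in WT (1.83 ± 0.15, adjusted p = 5.3e-05). Both mutants thus kept a remnant of the transcript, and because reads were taken at the 3′ end and the deleted parts are not given in the sources used here, these levels say nothing of the protein.

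Of 29 genes of the methylation machinery that were tested, 4 were called higher and 2 lower. These counts include Dnmt3a (higher) and Dnmt1 (lower), which the genotypes fix, and leave 3 other genes called higher and 1 lower, beside 5.72% and 4.85% of all genes. Dnmt3l, the catalytically inactive partner of the de novo enzymes that is normally a germline gene, had 9.72, 38.8 and 10.2 CPM in Dnmt1 KO and 0.163 to 0.243 CPM in Dnmt3a KO, a difference of 6.71 ± 0.56 (adjusted p = 6.8e-05). Dnmt1 KO 2 was the highest, and without it the difference was 5.67. Dnmt3l is among the leading genes of both cell clusters named extraembryonic (ExE) ectoderm, a trophoblast class that made up 30.9% of the cells of Dnmt1 KO 2 and whose 9 markers summed to 140, 434 and 136 CPM in Dnmt1 KO against 54.2 to 62.4 CPM in Dnmt3a KO. In ExE mesoderm and mesenchyme, the only cell class in which Dnmt3l could be tested, it had 1.36, 2.64 and 1.39 CPM in Dnmt1 KO and 0 to 0.454 CPM in Dnmt3a KO and was called higher (3.05 ± 0.58). Dnmt3b, the other de novo enzyme, had 94.9, 114 and 125 CPM in Dnmt1 KO and 54.6, 57.3, 46.1 and 65.7 CPM in Dnmt3a KO (1.08 ± 0.14, adjusted p = 5.7e-04). WT embryos spanned 36.0 to 87.3 CPM, so the Dnmt3a KO embryos lay inside the WT range and the Dnmt1 KO embryos above it. Dnmt3b lost the call without Dnmt1 KO 3 and with a replicate block (the replicate number as a term in the model). Only the numbers 1 and 2 occur in both groups, so with the block the difference rests on these embryos and Dnmt1 KO 3 adds nothing to it. Dnmt3b was called in 0 of the 5 cell classes in which it was tested. Mbd2, a reader of methylated CpG, had 16.7, 14.4 and 18.2 CPM against 48.8, 43.2, 47.9 and 52.5 CPM (−1.47 ± 0.12, adjusted p = 6.7e-05), and Morc1, a germline factor in transposon silencing, was the fourth gene called higher (2.92). Uhrf1 had 82.5 to 90.8 CPM in Dnmt1 KO and 124 to 168 CPM in Dnmt3a KO. Its difference of −0.57 ± 0.11 (adjusted p = 0.0051) did not reach the fold required for a call.

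**Figure D2:**
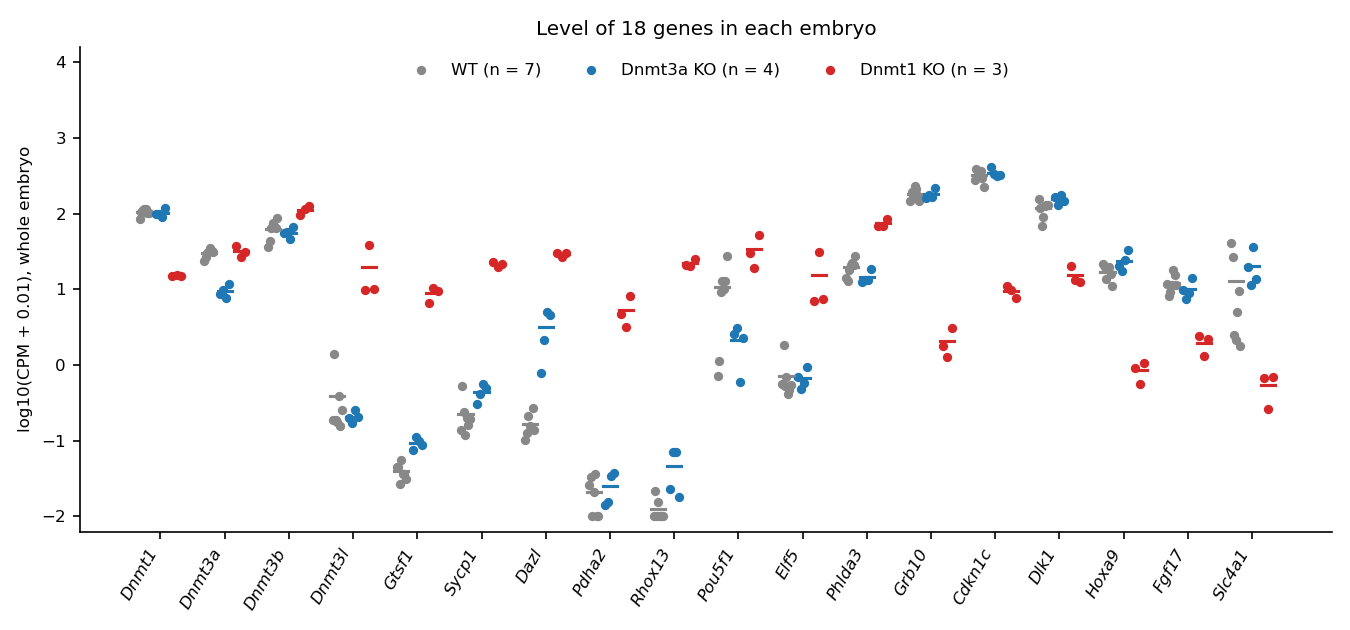
The log10 of the level (CPM + 0.01, whole embryo) of 18 genes is shown on the y axis for each embryo as a point, with the group mean as a bar, in WT (grey, n = 7), Dnmt3a KO (blue, n = 4) and Dnmt1 KO (red, n = 3). Sycp1 and Dazl lie lowest in WT, between in Dnmt3a KO and highest in Dnmt1 KO by group mean, whereas Grb10, Cdkn1c and Hoxa9 are low only in Dnmt1 KO among these 3 groups.

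Germline genes were called higher in all 4 lists of them. They act in the formation of eggs and sperm, and several of their CpG-rich promoters are known to be methylated in the embryo proper after implantation. Over 4 lists (the piRNA pathway, meiotic chromosomes, germline regulators, and germline copies of housekeeping genes) 71 of 82 members were tested. Of these, 41 were called higher and 0 lower, with a median log2 fold change of 1.71. Members high in Dnmt1 KO alone can pass the filter on low counts, while members low in both groups are left out. The 7 markers of primordial germ cells summed to 74.4 to 118 CPM in Dnmt1 KO and 52.3 to 61.3 CPM in Dnmt3a KO. Of these markers 2 were called higher and 0 lower, and the part of such cells in the levels of the lists was not tested. The promoters of 4 members called higher that hold an E-box and of 2 that do not are shown here, because the letters CACGTG are bound by MGA, MAX and related factors and GCGGGA by E2F6, members of a complex known to silence germline genes. They are the 200 bases upstream of the start of transcription in RefSeq (GRCm38.p6, 5′ to 3′ on the strand of the gene), and capitals mark the letters CACGTG and GCGGGA (or TCCCGC). The regions are chr3:102936101-102936300 for Sycp1, chr3:95559477-95559676 for Hormad1, chr9:50561269-50561468 for Tex12, chr5:135350045-135350244 for Fkbp6, chr17:50293621-50293820 for Dazl and chr6:18109062-18109261 for Asz1, of which only Hormad1 is on the plus strand.
Sycp1: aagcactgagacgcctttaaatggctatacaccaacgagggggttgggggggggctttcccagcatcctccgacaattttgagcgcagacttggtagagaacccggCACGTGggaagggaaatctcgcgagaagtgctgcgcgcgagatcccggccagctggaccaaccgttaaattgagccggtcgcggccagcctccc
Hormad1: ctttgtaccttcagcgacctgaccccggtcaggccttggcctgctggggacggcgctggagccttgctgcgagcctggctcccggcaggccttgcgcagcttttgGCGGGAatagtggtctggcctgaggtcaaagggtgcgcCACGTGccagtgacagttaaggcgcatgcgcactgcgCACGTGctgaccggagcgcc
Tex12: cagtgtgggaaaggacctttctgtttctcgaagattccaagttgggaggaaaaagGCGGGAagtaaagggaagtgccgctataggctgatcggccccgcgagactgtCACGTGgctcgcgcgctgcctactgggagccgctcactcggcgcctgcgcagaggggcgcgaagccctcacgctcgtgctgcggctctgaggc
Fkbp6: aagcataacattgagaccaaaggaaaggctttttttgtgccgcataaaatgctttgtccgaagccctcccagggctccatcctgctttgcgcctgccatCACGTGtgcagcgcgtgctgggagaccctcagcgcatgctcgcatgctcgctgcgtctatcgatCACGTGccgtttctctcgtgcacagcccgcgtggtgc
Dazl: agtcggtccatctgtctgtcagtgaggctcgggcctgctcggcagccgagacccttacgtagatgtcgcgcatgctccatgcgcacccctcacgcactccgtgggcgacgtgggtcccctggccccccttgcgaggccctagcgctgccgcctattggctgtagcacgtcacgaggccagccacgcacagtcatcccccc
Asz1: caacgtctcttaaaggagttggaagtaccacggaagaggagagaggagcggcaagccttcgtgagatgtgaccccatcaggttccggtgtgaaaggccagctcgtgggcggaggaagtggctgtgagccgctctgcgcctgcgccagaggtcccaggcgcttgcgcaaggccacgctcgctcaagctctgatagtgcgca

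A promoter of 300 bases (250 upstream and 50 downstream of the start) was found for 33 of the 41 germline genes called higher. CACGTG, which reads the same on both strands, was present in 11 of them (33.3%) and in 7.24% of the 27025 promoters of all genes. GCGGGA on either strand was present in 12 (36.4%, against 20.02% of all promoters) and both were present in 7 (21.2%, against 2.05%). These promoters held a median of 16 CpG. Of the 30 germline genes not called, 23 (76.7%) had a promoter in the table, under the 80% required for a comparison. CACGTG was present in 4 of them (17.4%), GCGGGA in 10 (43.5%, a larger share than in those called higher) and both in 1, with a median of 19 CpG. A match of letters is a description of the sequence and not evidence of a bound factor. All promoters include those of genes that are not protein-coding or not expressed. Of the protein-coding genes tested, 78.5% had a promoter in the table, under the 80% required, so a comparison with them is void, and among those found GCGGGA was as common (33.6%) as in the germline genes, CACGTG was in 9.75% and the median was 19 CpG.

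Among 20 genes of the piRNA pathway, which guards germ cells against transposons, 8 were called higher and 0 lower (median 1.14). Asz1, a scaffold of piRNA processing at mitochondria, had 20.9, 19.4 and 22.6 CPM in Dnmt1 KO and 0.796, 2.12, 1.18 and 1.87 CPM in Dnmt3a KO, and 0.0803 to 0.536 CPM in WT. Levels therefore stood in 3 separate ranges, with WT lowest and Dnmt1 KO highest, and the KO groups differed by 3.90 ± 0.30 (adjusted p = 4.3e-05). Gtsf1, a cofactor of PIWI proteins, had 6.60, 10.4 and 9.55 CPM against 0.0656 to 0.101 CPM (6.80 ± 0.28, adjusted p = 2.1e-06). Fkbp6, a chaperone cofactor, had 50.7, 63.4 and 39.3 CPM against 7.43, 12.4, 8.19 and 10.4 CPM, and no WT embryo exceeded 3.72 CPM (2.49 ± 0.21, adjusted p = 7.3e-05). Mov10l1, the helicase that loads piRNA precursors, differed by 2.83 ± 0.21.

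Among 25 genes of meiotic chromosomes, 15 were called higher and 0 lower (median 1.72). Sycp1, the transverse filament of the synaptonemal complex, had 22.7, 19.9 and 21.8 CPM in Dnmt1 KO and 0.298, 0.399, 0.544 and 0.492 CPM in Dnmt3a KO (5.71 ± 0.22, adjusted p = 1.7e-06). The Dnmt3a KO values overlapped with WT, which reached 0.513 CPM. Hormad1, an axis protein, had 10.5, 8.33 and 8.46 CPM against 0.709, 1.03, 2.74 and 1.99 CPM (2.56 ± 0.40, adjusted p = 0.0019). Tex12, of the central element, had 8.12, 7.96 and 5.96 CPM against 1.17, 1.72, 2.22 and 2.55 CPM (2.02 ± 0.24), and both genes were above the highest WT embryo in each Dnmt3a KO embryo. Syce1, of the same element, differed by 2.32 ± 0.28. Spo11 and Dmc1, which make and repair meiotic breaks, were tested and not called.

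Among 14 germline regulators, 9 were called higher and 0 lower (median 2.20). Dazl, an RNA-binding protein needed for germ cell licensing, had 30.4, 26.5 and 30.1 CPM in Dnmt1 KO and 0.774, 2.16, 4.99 and 4.62 CPM in Dnmt3a KO (3.30 ± 0.50, adjusted p = 0.0016). Every Dnmt3a KO embryo was above the highest WT embryo (0.258 CPM), and Dnmt3a KO 13 and 14 were higher than 1 and 2. Sohlh2, a transcription factor of early gametogenesis, had 12.7, 16.1 and 12.8 CPM against 0.385, 0.989, 1.86 and 1.93 CPM (3.52 ± 0.45, adjusted p = 6.4e-04). Dppa5a and Zfp42, which are also expressed in pluripotent cells, differed by 2.79 ± 0.29 and 2.74 ± 0.46. Of Zfp42, Dnmt1 KO 2 had 18.5 CPM and the other Dnmt1 KO embryos 6.53 and 5.14. Without Dnmt1 KO 2 the difference of Zfp42 was 1.89, and the call was lost without Dnmt3a KO 13 or without Dnmt3a KO 14.

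Among 12 germline copies of housekeeping genes, 9 were called higher and 0 lower (median 3.73). Pdha2, the testis copy of a pyruvate dehydrogenase subunit, had 4.69, 3.15 and 8.04 CPM in Dnmt1 KO and 0.00438 to 0.0276 CPM in Dnmt3a KO (8.37 ± 0.53, adjusted p = 1.8e-05). Rpl10l, the testis copy of a ribosomal protein, had 9.91, 11.5 and 11.1 CPM against 0.127, 0.404, 0.346 and 0.441 CPM (5.13 ± 0.36, adjusted p = 2.7e-05). Cox7b2 (4.62 ± 0.25) and Tuba3a (4.62 ± 0.33) were the other largest at 5 CPM or more, and Tuba3a shares sequence with Tuba3b, so that counts may be split or lost between them.

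In Dnmt3a KO many of these genes were not silent either. The Dnmt3a KO mean was above the WT range for 34 of the 41 germline genes called higher, against 227 of all 1039 genes called higher, and all 4 Dnmt3a KO embryos lay above all 7 WT embryos for 22, against 78 of all 1039. All 3 Dnmt1 KO embryos lay above all WT embryos for 41 of 41, against 929 of all 1039. The medians of the group means over these 41 genes were 0.227 CPM in WT, 1.08 CPM in Dnmt3a KO and 6.72 CPM in Dnmt1 KO. This order is a description of the members called, since the choice of members by the call fixes part of it, and WT was of mixed sex.

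**Figure D3:**
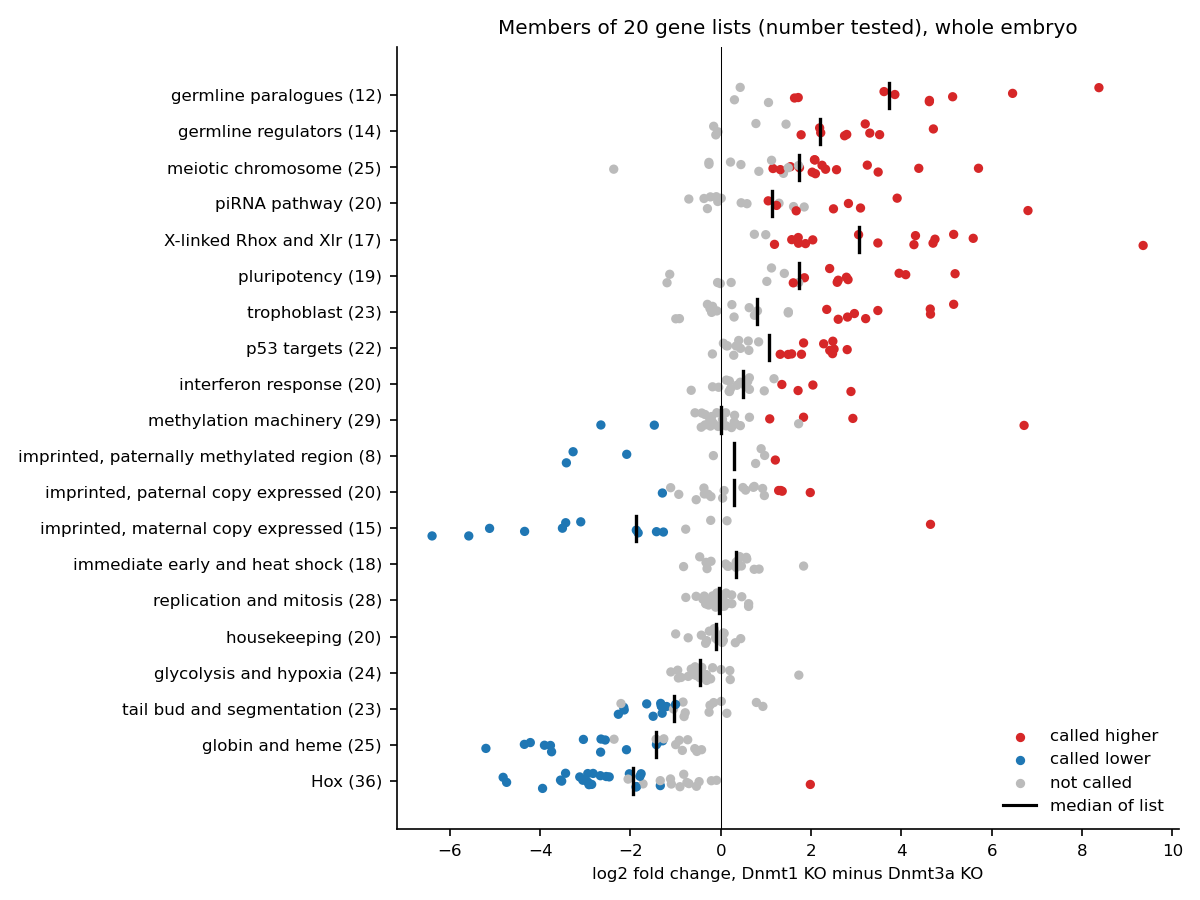
Each point is 1 tested member of 20 gene lists, placed on the x axis by its log2 fold change (Dnmt1 KO minus Dnmt3a KO, whole embryo) and coloured red if called higher, blue if called lower and grey if not called, with the list median as a black bar. The 4 germline lists and the X-linked Rhox and Xlr genes lie to the right, Hox and globin genes to the left, and the replication, housekeeping and glycolysis lists hold 0 called members.

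X-linked Rhox and Xlr genes, clustered families expressed mainly in testis, ovary and placenta, were mostly called higher too. Of 17 tested, 15 were called higher and 0 lower (median 3.05). Rhox13 had 20.6, 20.02 and 25.4 CPM in Dnmt1 KO and 0.00788 to 0.0618 CPM in Dnmt3a KO (9.35 ± 0.49, adjusted p = 7.0e-06). Rhox2a had 10.6, 13.7 and 12.4 CPM against 0.0481 to 0.477 CPM (5.59 ± 0.55, adjusted p = 1.5e-04), and WT reached 0.0758 CPM. Rhox9 had 21.5, 77.7 and 26.4 CPM against 1.08 to 1.65 CPM (5.16 ± 0.44). Rhox1 differed by 4.70 ± 0.58, and for both Rhox1 and Rhox9 Dnmt1 KO 2 was the highest. Without it the differences were 3.93 for Rhox1 and 4.28 for Rhox9. Members of these families are close copies of each other, so that counts of single members are uncertain.

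The X chromosome as a whole held more genes called higher. Of 667 X-linked genes tested, 117 (17.5%) were called higher and 21 (3.15%) lower, against 5.23% and 4.92% of 17454 autosomal genes. Without the Rhox and Xlr list, 102 of 650 (15.7%) were still called higher. Xist, the RNA that silences an X chromosome in cells with more than 1 active X, had 14.8, 7.07 and 8.75 CPM in the male Dnmt1 KO embryos and 0.368 to 0.536 CPM in the male Dnmt3a KO embryos. All female WT embryos had over 500 CPM. This gene and the X-linked counts were chosen after their values were seen.

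Several further genes reached high levels from near 0. By the largest fold among genes of at least 20 CPM, Serpinb1c, a serine protease inhibitor gene, had 37.9, 22.4 and 11.4 CPM in Dnmt1 KO and at most 0.0158 CPM in Dnmt3a KO (11.75 ± 0.62, adjusted p = 7.0e-06). The Dnmt3a KO values of Serpinb1c are 6 UMIs in all, with Dnmt3a KO 1 and 2 at 0, so the size of this fitted fold change depends on a small added count, and it ranged from 10.98 to 15.45 over the other settings. Trim5, of a family of antiviral restriction factors, had 35.9, 33.4 and 33.0 CPM against 0.0219 to 0.0945 CPM (9.61 ± 0.33, adjusted p = 1.4e-06). X-linked Tex13b and Usp26, both testis genes, differed by 6.62 ± 0.66 and 5.75 ± 0.64. Over the other settings these ranged from 6.10 to 7.59 and from 5.15 to 6.73. Dnmt3a KO 2 had 1.12 CPM of Usp26 and the other Dnmt3a KO embryos 0.184 to 0.276 CPM. Fthl17a, an X-linked ferritin-like gene, had 9.12, 44.7 and 10.1 CPM against 0.407 to 0.719 CPM (5.40 ± 0.59), and without Dnmt1 KO 2 the difference was 4.19. Fthl17a is also a leading gene of ExE ectoderm, whose marker sums of 140, 434 and 136 CPM were highest in the same embryo. In gut endoderm it had 30.6, 33.97 and 20.8 CPM against 0.631 to 3.26 CPM and was called higher (3.89 ± 0.33). Pkd1l2, of the polycystin family, had 56.7, 27.7 and 11.7 CPM against 0.331 to 0.902 CPM (5.80 ± 0.58), the Dnmt1 KO embryos spanning a wide range. It is a leading gene of an ExE endoderm cluster, and the 9 ExE endoderm markers stood in the same order, with 10239, 6825 and 1941 CPM in Dnmt1 KO 1, 2 and 3 and 3538 to 5356 CPM in Dnmt3a KO. Within ExE endoderm Pkd1l2 had 133, 73.3 and 77.3 CPM against 1.30 to 6.52 CPM and was called higher (5.08 ± 0.49).

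Imprinted genes, of which only the copy from 1 parent is expressed, were counted by the kind of imprint. Where the control region is methylated on the maternal copy and the maternal copy is the expressed one, 11 of 15 genes tested were called lower and 1 higher (median −1.87). Grb10, an adaptor that limits growth signalling, had 1.76, 1.27 and 3.09 CPM in Dnmt1 KO and 162, 174, 167 and 219 CPM in Dnmt3a KO, a difference of −6.39 ± 0.33 (adjusted p = 6.3e-06). Cdkn1c, a cell cycle inhibitor, had 11.2, 9.70 and 7.67 CPM against 412, 335, 311 and 328 CPM (−5.12 ± 0.19, adjusted p = 1.7e-06). Igf2r, the receptor that clears IGF2, had 24.7, 13.9 and 20.6 CPM against 80.0, 68.0, 68.3 and 88.6 CPM (−1.87 ± 0.18). In WT, Grb10 spanned 148 to 234 CPM and Cdkn1c 221 to 392 CPM. The Dnmt3a KO means of these 3 genes lay within the WT range, as they did for 8 of the 11 genes called lower, against 689 of all 881 genes called lower. Ascl2, a trophoblast regulator, was the gene called higher (4.64 ± 0.83), with 4.66, 59.4 and 6.15 CPM against 0.718 to 1.46 CPM, and without Dnmt1 KO 2 the difference was 2.45. Ascl2 lost the call without any 1 of the Dnmt3a KO embryos.

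Where the control region is methylated on the maternal copy and the paternal copy is expressed, 4 of 20 genes were called higher and 1 lower (median 0.28), and 5 higher and 3 lower without Dnmt1 KO 3 or with a replicate block. Peg10, a retrotransposon-derived gene needed in the placenta, had 518, 533 and 280 CPM in Dnmt1 KO and 101, 153, 85.5 and 134 CPM in Dnmt3a KO (1.98 ± 0.24, adjusted p = 5.4e-04). Peg3, a zinc finger gene, had 966, 823 and 956 CPM against 379, 337, 355 and 480 CPM (1.33 ± 0.12, adjusted p = 1.0e-04). Zrsr1, a splicing factor retrogene, differed by 1.36 ± 0.22, and Impact, a regulator of translation, by 1.28. Peg12 was the gene called lower (−1.29 ± 0.28, adjusted p = 0.0090), and it lost the call in 8 of 19 other settings. Snrpn, Ndn, Mest, Plagl1 and 11 others were not called.

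Where the control region is methylated on the paternal copy, 3 of 8 genes were called lower and 1 higher. Dlk1, a Notch-related growth regulator, had 20.2, 13.1 and 12.4 CPM in Dnmt1 KO and 165, 130, 174 and 145 CPM in Dnmt3a KO (−3.27 ± 0.21, adjusted p = 1.75e-05). Igf2, the fetal growth factor, had 0.439, 1.85 and 0.457 CPM against 9.01, 14.9, 9.42 and 8.83 CPM (−3.42 ± 0.54, adjusted p = 0.0019), and without Dnmt1 KO 2 the difference of Igf2 was −4.54. Dio3, which inactivates thyroid hormone, fell by 2.08 on the log2 scale. H19, the non-coding RNA expressed from the other parental copy of the Igf2 locus, had 1721, 1471 and 1084 CPM against 517, 968, 461 and 644 CPM (1.21 ± 0.26, adjusted p = 0.0081). The call of H19 was lost in 7 of 19 other settings, among them without Dnmt1 KO 1 or Dnmt1 KO 2.

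Hox genes set position along the body axis. Of 36 tested, 22 were called lower and 1 higher (median −1.95), and 35 had a negative fold change. The median was −1.55 for groups 1 to 4 (6 of 12 called lower), −1.88 for groups 5 to 8 (7 of 11) and −2.92 for groups 9 to 13 (9 of 13). Hoxa9 had 0.916, 0.554 and 1.06 CPM in Dnmt1 KO and 20.3, 17.7, 24.1 and 33.1 CPM in Dnmt3a KO (−4.74 ± 0.28, adjusted p = 1.3e-05). Hoxc8 had 6.10, 3.53 and 4.62 CPM against 40.8, 41.7, 48.0 and 90.1 CPM (−3.44 ± 0.28, adjusted p = 6.7e-05). Hoxa10 and Hoxc6 differed by −3.55 ± 0.27 and −3.52 ± 0.33. Hoxb5os, a non-coding RNA of the HoxB cluster, had 4.16, 1.44 and 3.89 CPM against 38.6 to 87.7 CPM (−4.201 ± 0.42). Clusters led by Hox genes held few Dnmt1 KO cells. Hoxb5os, Hoxaas3 and Hoxb9 were leading genes of the unnamed cluster 7 (5 Dnmt1 KO and 2854 Dnmt3a KO cells), and Hoxd1, Hoxa5 and Hoxb9 of cluster 5, named pharyngeal and intermediate mesoderm (1 and 2353 cells). The part of these cells in the whole-embryo levels was not tested, and the calls within classes are given with the other classes. Hoxc13 was the member called higher, at 0.398 CPM on average in Dnmt1 KO against 0.106 CPM. In Dnmt3a KO the mean lay within the WT range for 19 of the 22 genes called lower, against 689 of all 881 genes called lower.

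Genes of the tail bud and of segmentation extend the body axis and form somites. Of 23 tested, 11 were called lower and 0 higher (median −1.05). Hes7, the oscillating repressor of the segmentation clock, had 2.92, 2.27 and 3.07 CPM in Dnmt1 KO and 10.02, 13.9, 12.04 and 15.4 CPM in Dnmt3a KO (−2.14 ± 0.18, adjusted p = 7.95e-05). Fgf17, a growth factor of the tail bud, had 2.41, 1.32 and 2.17 CPM against 9.92, 7.39, 9.05 and 13.9 CPM (−2.27 ± 0.25, adjusted p = 3.1e-04), and Fgf8 differed by −1.64 ± 0.28 and lost the call without Dnmt1 KO 1 (−1.62, adjusted p = 0.0156). Dll1, a Notch ligand, differed by −1.497 ± 0.30 and lost the call without Dnmt1 KO 1, Dnmt1 KO 2, Dnmt3a KO 13 or Dnmt3a KO 14. T and Tbx6, which define early mesoderm, were not called. Without Dnmt1 KO 1 only 3 of the 23 genes were called lower, without Dnmt3a KO 14 only 5, without Dnmt3a KO 2 only 7 (and 1 higher), and 2 to 3 with either subset of the Dnmt3a KO libraries by reference. The summed level of 10 markers of presomitic mesoderm and neuromesodermal progenitors (NMP) was 61.5 to 80.5 CPM in Dnmt1 KO and 102 to 170 CPM in Dnmt3a KO. Hes7, Fgf17, Dll1, T and Tbx6 are themselves among these markers.

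Genes of pluripotency keep early epiblast cells undifferentiated. Of 19 tested, 10 were called higher in Dnmt1 KO and 0 lower (median 1.72), and 15 had a positive fold change. Only 2 were called higher with either subset of the Dnmt3a KO libraries by reference, and 2 were called lower with a replicate block or without Dnmt1 KO 3. Pou5f1, which encodes OCT4, had 30.2, 18.95 and 52.1 CPM in Dnmt1 KO and 2.56, 3.07, 0.585 and 2.24 CPM in Dnmt3a KO (4.09 ± 0.52, adjusted p = 6.5e-04). WT embryos spanned 0.710 to 27.9 CPM with a median of 9.94, so that Dnmt1 KO 2 lay inside the WT range. Pou5f1 and Slc7a3 are leading genes of a cluster named epiblast-like, and the 7 epiblast-like markers, all called higher, summed to 183 to 272 CPM in Dnmt1 KO and 54.9 to 77.4 CPM in Dnmt3a KO. Pou5f1, Utf1, Slc7a3 and Trh are themselves among these markers, so the sum is not separate from their levels. Utf1, a chromatin factor of pluripotent cells, had 17.4, 72.7 and 22.2 CPM against 0.977 to 1.25 CPM (5.19 ± 0.49, adjusted p = 1.2e-04), and without Dnmt1 KO 2 the difference was 4.202. Utf1 is among the leading genes of the ExE ectoderm clusters too, and Dnmt1 KO 2 held 30.9% ExE ectoderm cells with 434 CPM of their markers. In presomitic mesoderm and NMP Utf1 had 1.81, 2.58 and 4.50 CPM against 0.117 to 1.17 CPM (2.72 ± 0.55, called higher), and in ExE endoderm it was not called. Slc7a3, an amino acid transporter, and Trh, a hormone precursor, differed by 2.82 ± 0.34 and 2.58 ± 0.34. All 3 Dnmt1 KO embryos lay above all WT embryos for 5 of the 10 genes, against 929 of all 1039 genes called higher. Sox2, Otx2 and Klf4 were not called.

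Trophoblast genes, expressed in the placental lineage, were called higher in 9 of 23 cases and lower in 0 (median 0.81). Elf5, a regulator of trophoblast stem cells, had 7.01, 31.6 and 7.40 CPM in Dnmt1 KO and 0.466 to 0.930 CPM in Dnmt3a KO (4.64 ± 0.55, adjusted p = 4.35e-04), and without Dnmt1 KO 2 the difference was 3.48. Rhox6 had 50.6, 158 and 50.0 CPM against 5.87 to 9.75 CPM (3.48 ± 0.41, and 2.64 without Dnmt1 KO 2). Dnmt1 KO 2 was therefore several times higher than the other Dnmt1 KO embryos for Elf5, Rhox6, Rhox9 and Ascl2, which are all leading genes of an ExE ectoderm cluster, as is Zfp42. The number called higher was 9 without Dnmt1 KO 2, where 3 others were called lower, 5 to 6 without Dnmt3a KO 1, 13 or 14, and 1 with either subset of the Dnmt3a KO libraries by reference. The sum of 9 markers of ExE ectoderm was 140, 434 and 136 CPM in Dnmt1 KO and 54.2 to 62.4 CPM in Dnmt3a KO, and 5 of the 8 tested were called higher. Elf5, Rhox6 and Rhox9 are themselves among these 9 markers, so the sum is not separate from their levels. Tpbpa, another of the 9 markers, was at 0 in both groups. Tissue of the ectoplacental cone, a trophoblast structure, was used by the authors for genotyping, and the part of remaining trophoblast tissue in these levels was not tested.

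Targets of p53, which respond to damaged DNA and other stress, were called higher in 11 of 22 cases and lower in 0 (median 1.08). Phlda3, a repressor of AKT signalling, had 68.8, 69.3 and 86.0 CPM in Dnmt1 KO and 12.3, 13.3, 13.3 and 18.5 CPM in Dnmt3a KO (2.47 ± 0.14, adjusted p = 1.0e-05). Phlda3 is a leading gene of the epiblast-like cluster, whose marker sums of 183 to 272 CPM against 54.9 to 77.4 CPM moved with it, and it was called higher in 4 of the 5 cell classes tested. Trp53inp1, a proapoptotic cofactor of p53, had 22.7, 18.3 and 16.7 CPM against 2.81 to 4.51 CPM (2.41 ± 0.17, adjusted p = 3.2e-05). Pmaip1, which encodes the proapoptotic protein NOXA, and Ddit4l, an inhibitor of mTOR signalling, differed by 2.51 ± 0.27 and 2.48 ± 0.23. Mdm2, Bax and Bbc3 were not called. The Dnmt3a KO mean lay within the WT range for 10 of the 11, against 779 of all 1039 genes called higher. The sum of mitochondrial transcripts, which can rise in damaged cells, was 40366 to 44634 CPM in Dnmt1 KO, 24344 to 26682 CPM in Dnmt3a KO 1, 2 and 13, and 45251 CPM in Dnmt3a KO 14. Its part in these levels was not tested.

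Interferon-response genes were called higher in 4 of 20 cases and lower in 0 (median 0.49). Bst2, an antiviral tether protein, had 128, 170 and 74.2 CPM in Dnmt1 KO and 41.9, 54.5, 30.5 and 31.3 CPM in Dnmt3a KO (1.71 ± 0.30, adjusted p = 0.00305), and its call was lost without Dnmt1 KO 1, Dnmt1 KO 2, Dnmt3a KO 13 or Dnmt3a KO 14. Oas1a, Rsad2 and Ifi27 were the other members called. Of the list, 1 gene was called without Dnmt1 KO 2 or Dnmt3a KO 14, 2 without Dnmt1 KO 1 or Dnmt3a KO 13, and 0 with either the Dnmt3a KO libraries counted on mouse genes alone or those counted on the combined reference. The lists of replication and mitosis (28 tested), glycolysis and hypoxia (24), housekeeping (20) and immediate early and heat shock genes (18) held 0 called genes by edgeR. At an unadjusted p under 0.05 they held 11, 18, 7 and 7 genes in this order, 17 of the 18 glycolysis and hypoxia genes being lower in Dnmt1 KO (list median −0.45), and DESeq2 called 1 glycolysis and hypoxia gene (Ndrg1, higher) and 0 of the other 3 lists.

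Globin and heme genes are expressed in primitive red blood cells. Of 25 tested, 14 were called lower and 0 higher (median −1.43), and 9 were called lower with WT in the model. Slc4a1, the anion exchanger of the red cell membrane, had 0.673, 0.255 and 0.692 CPM in Dnmt1 KO and 19.9, 11.3, 35.7 and 13.7 CPM in Dnmt3a KO (−5.20 ± 0.56, adjusted p = 2.7e-04). Hbb-y, an embryonic globin, had 169, 89.9 and 157 CPM against 2792, 1097, 6517 and 1104 CPM (−4.35 ± 0.72, adjusted p = 0.0026). WT spanned 144 to 8840 CPM, so that Dnmt1 KO 1 and 3 lay at the low end of WT, Dnmt1 KO 2 below it and the Dnmt3a KO embryos within it, and the call was lost with WT in the model and without Dnmt1 KO 1 or Dnmt1 KO 2. Hba-a2, which shares nearly all of its sequence with Hba-a1 and is uncertain as a single gene, and Hemgn, a nuclear protein of erythroid cells, differed by −4.22 ± 0.48 and −3.90 ± 0.40. The sum of 9 erythroid markers was 1083 to 1575 CPM in Dnmt1 KO and 6618 to 26799 CPM in Dnmt3a KO. Slc4a1, Hbb-y and Hemgn are themselves among these markers.

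Genes outside the lists were among the largest decreases. Foxd1, a forkhead factor, had 0.346, 0.124 and 0.282 CPM in Dnmt1 KO and 24.6, 15.7, 24.8 and 38.4 CPM in Dnmt3a KO (−6.63 ± 0.40, adjusted p = 1.3e-05). Foxd1 is a leading gene of the paraxial mesoderm cluster, a class of 3 Dnmt1 KO and 1761 Dnmt3a KO cells whose 8 markers summed to 43.9 to 95.2 CPM against 123 to 284 CPM. It was also called lower in 4 of the 5 cell classes tested, with 1.36, 0.939 and 0.818 CPM against 11.3 to 20.5 CPM in presomitic mesoderm and NMP. Ankrd1, a cofactor of cardiac muscle, had 0.860, 0.204 and 0.411 CPM against 18.6 to 38.7 CPM (−5.86 ± 0.49), and is a leading gene of the cardiomyocyte cluster, whose marker sums are given with the classes. Lum, an extracellular matrix proteoglycan, had 1.01 to 1.41 CPM against 20.8 to 54.3 CPM (−4.76 ± 0.39).

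The make-up of the embryos differed by class. Cell classes were rebuilt by clustering the 7 libraries without the genes of the lists above. They were named from marker genes, some of which are members of those lists. Their shares are given without a test, since 3 against 4 embryos cannot give an exact two-sided permutation p below 0.0571. ExE ectoderm made up 5.53%, 30.9% and 4.35% of the cells of Dnmt1 KO 1, 2 and 3 and 0 to 2 cells per embryo in Dnmt3a KO. Epiblast-like cells, which share markers with undifferentiated epiblast, made up 17.0%, 9.45% and 10.4% in Dnmt1 KO and 0.162% to 0.339% in Dnmt3a KO. Erythroid cells made up 0.195% to 4.14% in Dnmt1 KO and 6.70% to 15.6% in Dnmt3a KO. Neuroectoderm and neural crest held 0 cells in each Dnmt1 KO embryo, which allows shares of up to 0.202%, 0.0975% and 0.106% in Dnmt1 KO 1, 2 and 3 for counting error alone, and 2892 and 739 cells in Dnmt3a KO. These limits take the naming of the clusters as given. By mapping to a reference atlas, with CRISPR embryos included, the authors reported relatively more rostral neuroectoderm and less brain and neural crest in Dnmt1 mutants. They described all major cell types as able to form, and Dnmt1 mutants as slightly delayed in development. The cardiomyocyte class held 0 Dnmt1 KO and 354 Dnmt3a KO cells, and this rests on the naming as well. Cluster 9, with the heart genes Mef2c, Myocd, Myl7, Ttn and Csrp3 among its leading genes, was left unnamed because its leading genes held markers of another class and none of its best-scoring one, and it held 469 Dnmt1 KO and 577 Dnmt3a KO cells. Allantois held 2 against 982 cells and surface ectoderm 10 against 1929. Marker sums did not follow these shares in every class. In Dnmt1 KO they were 100 to 166 CPM for neuroectoderm (259 to 407 CPM in Dnmt3a KO), 35.1 to 84.2 CPM for neural crest (117 to 225 CPM) and 176 to 484 CPM for cardiomyocytes (822 to 1408 CPM). For allantois they were 132 to 157 CPM against 131 to 148 CPM, and for surface ectoderm 1199 to 1720 CPM against 950 to 1146 CPM, which was higher in Dnmt1 KO. Of the 9 surface ectoderm markers only 1 was called higher and 1 lower. Krt18, Epcam and Cldn6 among them are gut endoderm markers too, and the authors count Krt8 as an extraembryonic marker. The part of other epithelial cells in this sum was not tested. Unnamed clusters took 18.0%, 12.7% and 46.8% of the cells of Dnmt1 KO and 7.57% to 25.4% of Dnmt3a KO. Among the reference cells used for clustering (up to 1500 per library), 6 of the 31 clusters held over 90% Dnmt1 KO cells. Over all cells the share could be lower, as in cluster 1, with 1075 Dnmt1 KO and 183 Dnmt3a KO cells named ExE endoderm. Class shares thus depend on how such clusters were named.

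**Figure D4:**
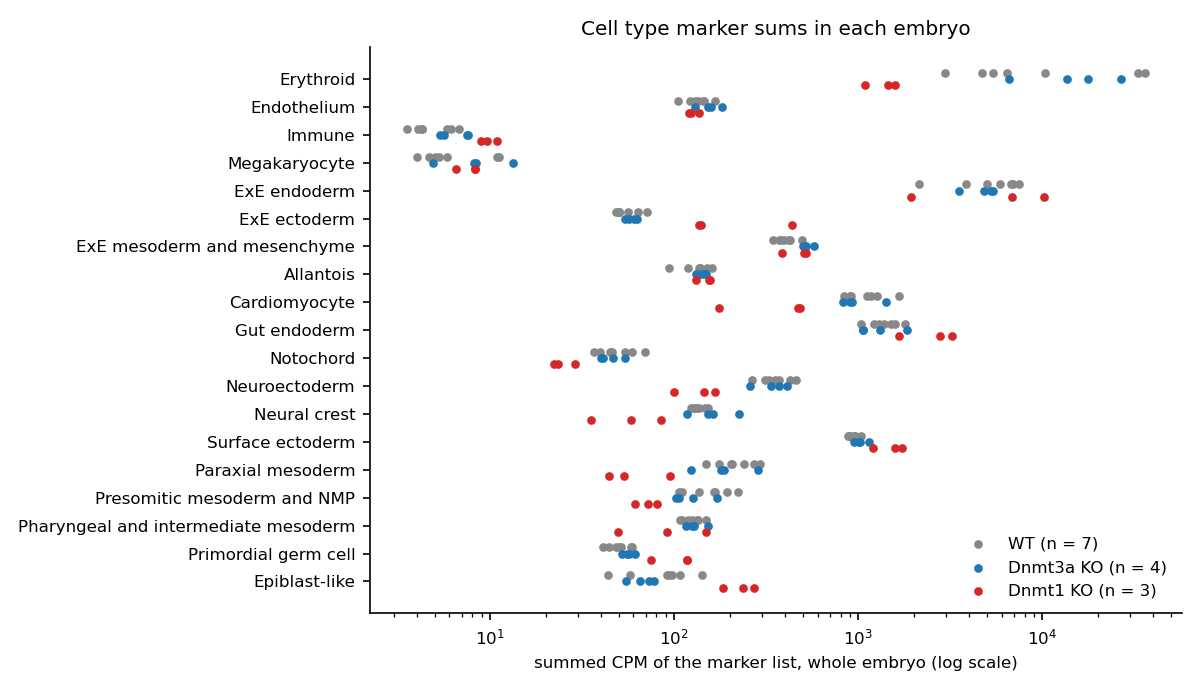
The summed level (CPM, whole embryo, log scale) of the markers of 19 classes is shown on the x axis for each embryo as a point, in WT (grey, n = 7), Dnmt3a KO (blue, n = 4) and Dnmt1 KO (red, n = 3). Dnmt1 KO embryos lie below Dnmt3a KO embryos for erythroid, neuroectoderm, neural crest and paraxial mesoderm markers and above them for ExE ectoderm and epiblast-like markers.

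Within 5 classes that both groups held, the comparison was repeated on counts summed per class and embryo, again with edgeR. In endothelium 481 of 11397 genes were called higher (4.22%) and 516 lower (4.53%), in gut endoderm 584 of 11935 (4.89%) and 491 (4.11%), and in presomitic mesoderm and NMP 800 of 12215 (6.55%) and 717 (5.87%). In ExE mesoderm and mesenchyme 654 of 12313 were called higher (5.31%) and 640 lower (5.20%), and in ExE endoderm 273 of 13139 (2.08%) and 137 (1.04%, or 3.12% in either direction). Of the 1920 genes called in whole embryos, 992 (51.7%) were called in the same direction in at least 1 of the 5 classes. There were 60 genes called higher and 16 called lower in all 5 classes, and 151 genes were called in opposite directions in different classes. Cells of both groups lay in the same clusters for endothelium (clusters 15 and 16) and gut endoderm (cluster 12), but mainly in different clusters for ExE endoderm (Dnmt1 KO in 1, Dnmt3a KO in 0 and 10), for ExE mesoderm and mesenchyme (6 against 24 and 26) and for presomitic mesoderm and NMP (21 against 19). Cluster 21 was led by Mesp1, with no marker of its class among its leading genes. Its marker score was 1.56 for this class and 1.11 for pharyngeal and intermediate mesoderm. Cluster 19 scored 4.45, with Hes7, Fgf17 and Dll3 among its leading genes. Cluster 6 scored 1.03 for ExE mesoderm and mesenchyme and 0.856 for pharyngeal and intermediate mesoderm, with Tdo2, Ahnak and Hand1 among its leading genes. Clusters 24 and 26 scored 2.57 and 2.01 for ExE mesoderm and mesenchyme. The names of both these classes are thus weakly borne out for the Dnmt1 KO cells. Results in presomitic mesoderm and NMP and in ExE mesoderm and mesenchyme may compare unlike cells. RNA released from other cells into the droplets may add to any class, and its part was not tested.

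Germline genes were called higher in every one of these classes, with 28 of 35 tested members in endothelium, 32 of 43 in gut endoderm, 32 of 40 in presomitic mesoderm and NMP, 32 of 43 in ExE mesoderm and mesenchyme and 15 of 50 in ExE endoderm. In presomitic mesoderm and NMP 1 member was called lower, and in the other 4 classes 0 were. Sycp1 had 54.6, 58.0 and 57.3 CPM in the endothelium of Dnmt1 KO and 0 to 0.343 CPM in that of Dnmt3a KO (8.38 ± 0.29). In ExE endoderm it had 11.3, 8.92 and 10.4 CPM against 1.12 to 2.40 CPM (2.81 ± 0.28). Dazl had 55.2, 31.6 and 36.8 CPM against 1.12 to 3.43 CPM in endothelium, and in ExE mesoderm and mesenchyme 98.1, 106 and 64.3 CPM against 1.82, 7.56, 22.4 and 27.2 CPM, where Dnmt3a KO 13 and 14 reached the highest levels of this gene in Dnmt3a KO among the 5 classes. Rhox and Xlr genes were called higher in 13 of 13, 14 of 15, 15 of 15, 14 of 15 and 3 of 15 cases in the same order of classes. The 4 germline lists hold 82 genes and the Rhox and Xlr list 20. A member was tested in a class only if it passed the filter on low counts, which members high in Dnmt1 KO alone can pass. The shares called are therefore partly fixed by the filter and rest on different members in each class.

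The smaller germline response of ExE endoderm, the lineage of the yolk sac, was tested as a difference of differences with the embryo as a block, a test added after the values had been seen. Smaller here means a lower signed value of Dnmt1 KO minus Dnmt3a KO. Over all genes it thus includes genes that fell further in ExE endoderm. Against endothelium, the difference between the KO groups was smaller in ExE endoderm for 12 of 49 germline genes (1.00% of all 13040 genes tested) and larger for 0. Against gut endoderm it was smaller for 13 of 50 (1.99% of all genes) and larger for 0. For Rhox and Xlr genes it was smaller for 9 of 15 in either comparison. Asz1 is an example, with a difference smaller by 4.14 ± 0.42 on the log2 scale than in endothelium (adjusted p = 0.0012). Its level in ExE endoderm was 14.6, 12.9 and 11.4 CPM in Dnmt1 KO and 3.08, 6.41, 5.25 and 7.33 CPM in Dnmt3a KO, against 0.120 to 1.12 CPM in the endothelium of Dnmt3a KO, and these ranges did not overlap. Rhox13 was not called smaller (a difference of differences of 0.17 ± 0.29), and in the separate fits of each class its difference was 9.52 in ExE endoderm and 8.99 in endothelium. Dnmt3a KO 2 held 5196 of the 7916 Dnmt3a KO cells of ExE endoderm. Without it the difference was smaller than in endothelium for 19 of 49 germline genes (2.32% of all genes) and smaller than in gut endoderm for 20 of 49 (3.69%). The shares over all genes thus rose as well.

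**Figure D5:**
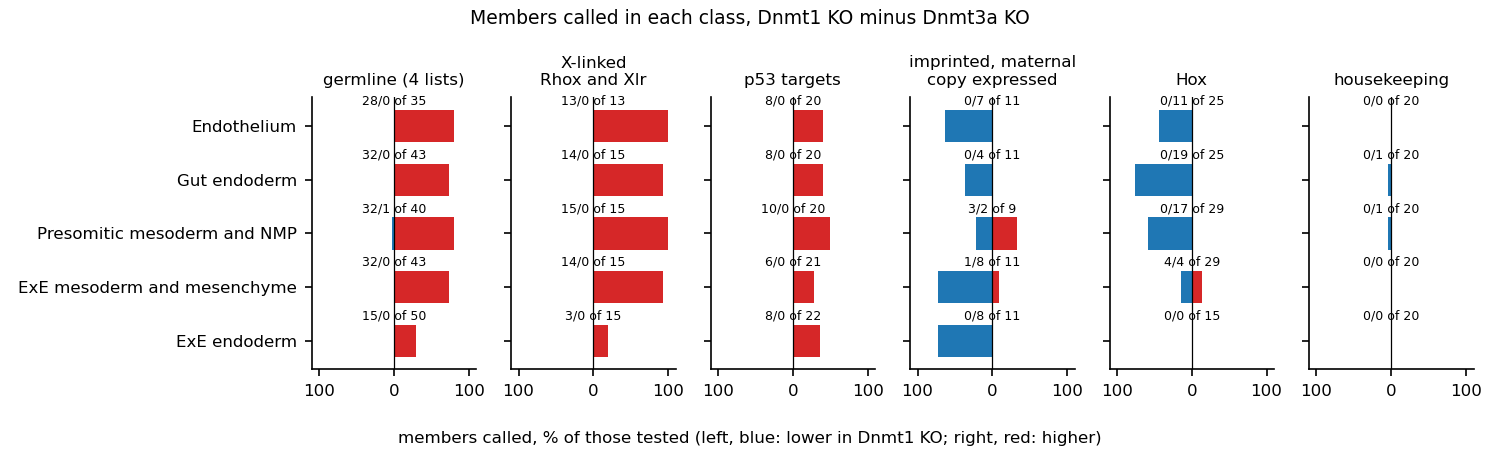
For 6 gene lists (panels) and 5 cell classes (rows), bars give the share of tested members called lower (left, blue) and higher (right, red) in Dnmt1 KO against Dnmt3a KO, in percent, with the numbers higher/lower of those tested above each bar. Germline and Rhox and Xlr genes are called higher in most cases outside ExE endoderm, where 15 of 50 and 3 of 15 are.

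Calls of imprinted and Hox genes varied between the classes. Grb10 and Cdkn1c were called lower in all 5 classes. In gut endoderm, Grb10 had 0.464, 1.21 and 2.14 CPM in Dnmt1 KO and 287, 289, 282 and 332 CPM in Dnmt3a KO (−7.77 ± 0.24). In ExE endoderm it had 0.269 to 1.14 CPM against 12.8 to 43.9 CPM, from a lower level. Dlk1 was called lower in 4 classes, and in presomitic mesoderm and NMP it had 19.02, 19.7 and 16.8 CPM against 8.66 to 11.9 CPM (0.90 ± 0.16), which did not reach the fold required. In the imprinted genes expressed from the maternal copy, 7 of 11 were called lower in endothelium, 4 of 11 in gut endoderm, 8 of 11 in ExE mesoderm and mesenchyme, 8 of 11 in ExE endoderm and 2 of 9 in presomitic mesoderm and NMP, where 3 were called higher.

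Hox genes were called lower in 19 of 25 cases in gut endoderm, 17 of 29 in presomitic mesoderm and NMP and 11 of 25 in endothelium, with 0 higher. In ExE mesoderm and mesenchyme 4 of 29 were called lower and 4 higher. In ExE endoderm edgeR called 0 of 15, with 9 at an unadjusted p under 0.05, and DESeq2 called 4. Hoxc8 had 2.78, 0 and 1.07 CPM in the gut endoderm of Dnmt1 KO and 94.4, 70.7, 60.4 and 125 CPM in that of Dnmt3a KO (−5.81 ± 0.43). In endothelium it had 6.85, 0.498 and 6.13 CPM against 8.12 to 16.2 CPM, which did not pass the test. Of the 22 targets of p53 on the list, 6 to 10 were called higher per class and 0 lower, where 2.08% to 6.55% of all genes tested in a class were called higher. Phlda3 had 110, 132 and 112 CPM in presomitic mesoderm and NMP of Dnmt1 KO and 9.94 to 20.3 CPM in Dnmt3a KO (3.16 ± 0.20), while in ExE mesoderm and mesenchyme it had 35.3, 39.0 and 45.7 CPM against 22.9 to 32.9 CPM (0.59 ± 0.14).

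Trim5 and Serpinb1c were called higher in all 5 classes. In gut endoderm Trim5 had 63.5, 63.1 and 76.9 CPM in Dnmt1 KO and was at 0 in all 4 Dnmt3a KO embryos. Pou5f1 was higher in 4 classes, with 72.7, 71.8 and 68.7 CPM in presomitic mesoderm and NMP of Dnmt1 KO against 1.85 to 10.8 CPM, and in ExE endoderm it had 0.538 to 1.52 CPM against 0.181 to 0.743 CPM and was not called. Globin transcripts were low in classes that do not make them, and the groups differed there too: Hba-a2 in gut endoderm had 0.534 to 1.39 CPM in Dnmt1 KO and 7.31 to 32.3 CPM in Dnmt3a KO (−4.43 ± 0.81), beside the higher erythroid marker sums of Dnmt3a KO given above.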

How the data were processed

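Single embryos were dissociated and profiled with 10x Genomics 3′ v3 chemistry by the authors. The deposited values are raw counts of unique molecular identifiers per gene and barcode, which the authors made with Cell Ranger (3.1.0 per the file headers, whereas the methods name another version) and did not normalize. For Dnmt3a KO 1 and 13 and WT 1 the reference also held human genes, which were dropped, and 31053 mouse genes were used. Barcodes with at least 1500 mouse UMIs and at most 30% mitochondrial counts were kept. Coordinates are those of GENCODE on GRCm38, where 18153 of the 18168 genes tested were found. Promoters are those of RefSeq.

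Counts were summed per embryo, filtered with filterByExpr, scaled by TMM and fitted in edgeR 4.0.16 under R 4.3.3 (glmQLFit and glmQLFTest) over Dnmt1 KO 1, 2 and 3 and Dnmt3a KO 1, 2, 13 and 14, with p-values adjusted by Benjamini-Hochberg over all genes tested. The labels do not say whether embryos of a genotype shared a litter, so the p-values measure the spread between these embryos. Depth is given as UMIs per embryo, and intervals and limits on shares of cells cover counting error only. For cell classes, Scrublet scores (scanpy 1.11.5) ranked the cells of a library and the highest 0.8% per 1000 cells were removed as doublets (3224 cells), and up to 1500 reference cells per library were clustered (2500 variable genes, 50 components, 30 neighbours, Leiden resolution 2, leidenalg 0.10.2), giving 31 clusters, of which 26 were named. The naming thresholds were chosen after cluster scores had been seen. A library entered a class with at least 25 cells.

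The members, the 20 gene lists and the tests were chosen with earlier results of these data known. Genes were named by a rule: 5 methylation genes, the 4 called members of each list with the largest change and a mean of at least 5 CPM, members behind a count of 5 or fewer, and the 10 largest increases and decreases of at least 20 CPM whose groups did not overlap. Alternatives were RLE scaling, DESeq2 1.42.0, no filter on low counts, thinning to the smallest library (85250129 UMIs), WT in the model, subsets by reference, a replicate block, other barcode filters and leaving out each library. The scripts were tested on simulated data. Dnmt3b KO libraries were not used here.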

Additional observations from a re-analysis of the deposited data

Results flagged for a closer look

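In 140 sets of values (1 gene in a group of 4 to 7 embryos) the highest or lowest embryo was compared with the others by Dixon's test at the 95% level, and 22 (15.7%) had an embryo that stood apart. Chance gives about 1 in 20 for independent, normally distributed values. These were untransformed CPM of genes from the same embryos, so the share cannot be read as an excess. WT 2, the male WT embryo, was the highest of WT for Dnmt3l (1.38 CPM), Sycp1 (0.513 CPM), Syce1 (0.402 CPM), Tex12 (0.478 CPM), Sohlh2 (0.227 CPM), Ascl2 (3.42 CPM), Utf1 (5.43 CPM), Rhox9 (6.81 CPM), Elf5 (1.84 CPM), Rhox1 (0.361 CPM) and Fthl17a (2.12 CPM). These levels were below those of every Dnmt1 KO embryo. WT 2 also had the highest sum of ExE ectoderm markers in WT, 70.8 CPM against 48.0 to 63.2 CPM, and the part of either in these levels was not tested. Rhox9 and Elf5 are themselves among those markers. Among the other WT embryos, WT 1 was high for Mov10l1 (0.599 CPM) and Hbb-y (8840 CPM), WT 3 for Trim5 (0.237 CPM), and WT 5 was low for Mbd2 (23.6 CPM).

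Dnmt3a KO 14 was the highest Dnmt3a KO embryo for Hoxc8 (90.1 CPM), Rhox9 (1.65 CPM), Phlda3 (18.5 CPM), Dll1 (14.1 CPM) and Trim5 (0.0945 CPM). Dnmt3a KO 2 was the highest for Igf2 (14.9 CPM) and Usp26 (1.12 CPM).

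The signed difference between the KO groups was itself smaller in ExE endoderm than in endothelium for 12 of 49 germline genes and 9 of 15 Rhox and Xlr genes. It was smaller than in gut endoderm for 13 of 50 and 9 of 15, by edgeR with the embryo as a block.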

How the results depend on the processing

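Against 1920 genes called in whole embryos, 1481 were called with a replicate block (687 higher and 794 lower), and 1589 to 2671 under other scaling, DESeq2, no filter on low counts, thinning, WT in the model and other barcode filters. Only 457 were called with the Dnmt3a KO libraries counted on mouse genes alone (282 higher and 175 lower) and 870 with those counted on the combined reference (444 and 426), both of which leave 2 of the 4 Dnmt3a KO embryos. In these subsets 26 and 27 germline genes were called higher and 12 and 14 Hox genes lower. Leaving out 1 embryo gave 1219 to 2592, with 1219 without Dnmt1 KO 1 and 1274 without Dnmt3a KO 13. Against 161 list members called, 79 were called with libraries counted on mouse genes alone, 160 with the block and 125 to 177 without 1 embryo. Against 5293 calls by gene and class, 3180 were made with libraries counted on mouse genes alone, 4597 with the block, 7407 with no filter on low counts and 4022 to 6187 without 1 embryo. Without Dnmt3a KO 2, the members with a smaller difference in ExE endoderm numbered 19 of 49 and 20 of 49 germline genes, against endothelium and gut endoderm, and 13 and 11 Rhox and Xlr genes. Over all genes the share with a smaller signed difference rose too, from 1.00% to 2.32% and from 1.99% to 3.69%. Of 70 named genes, 45 kept their side of the threshold in all 19 alternatives and 25 lost a call in some, 15 of them only in the subsets by reference. The groups share the replicate numbers 1 and 2 only, so that with the block the difference rests on these embryos of each group. Their deviations from the group means correlated at 0.0887 and 0.142, and the labels do not tie equal numbers to a shared litter. The block ended the calls of Dnmt3b, Zrsr1 and H19. No named gene changed direction. The causes were not tested. Gut endoderm held 31 to 42 cells per Dnmt1 KO embryo and could not be tested with a minimum of 50 cells.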

Other observations

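Several Y-linked genes were called higher in Dnmt1 KO, a pattern chosen after the values were seen. Of 13 Y-linked genes tested, 7 were called higher by edgeR and 0 lower (5.72% of all genes were called higher), and the broadly expressed Ddx3y, Eif2s3y, Kdm5d and Uty were not among them. Usp9y, a deubiquitinase gene, had 10.8, 8.20 and 15.0 CPM in Dnmt1 KO and 0.0659 to 0.208 CPM in Dnmt3a KO. Uba1y, the Y-linked copy of a ubiquitin-activating enzyme, had 3.31, 2.62 and 4.90 CPM against 0.0494 to 0.0906 CPM. Zfy1, a zinc finger gene of spermatogenesis, had 2.18, 2.30 and 2.48 CPM against 0.0670 to 0.146 CPM. In each of these genes the groups did not overlap, and all 7 embryos were male. X-linked genes were called higher in 15.8% of 436 cases in endothelium, 17.9% of 470 in gut endoderm and 19.9% of 468 in presomitic mesoderm and NMP, and in 8.13% of 492 in ExE endoderm, where autosomal shares were 3.73%, 4.34%, 5.9998% and 1.81% in the same order.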
